A study of Mus musculus with 6 samples.

Results

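The ER translocon is the membrane gate through which newly made secretory and membrane proteins enter the endoplasmic reticulum (ER). Transcripts of Serp1 and the other translocon genes were followed here in MIN6 cells, which derive from a mouse insulinoma and secrete insulin, after knockdown of TDP-43, a protein that binds RNA in the nucleus and is the product of Tardbp. The genes were 10 named members, Serp1, Sec61a1, Sec61b, Sec61g, Sec62, Sec63, Ssr1, Ssr2, Ssr3 and Ssr4. Their probe sets were all those that the array annotation assigns to one of these genes and to no other gene. That rule gave 29 of the array's 45101 probe sets, for 9 of the 10 genes. Sec61g had only 1 probe set, shared with the pseudogenes Gm11575 and Gm10177, and was left out.

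Both groups were MIN6 cells electroporated with 100 pmol of siRNA by a pulse of 1200 V lasting 20 ms. The controls received a control siRNA (3 arrays) and the others an siRNA against TDP-43 (3 arrays). No untreated or mock-electroporated group was analysed here, so every difference is against cells that also went through electroporation with siRNA. MIN6 is a tumour line in culture and not an islet beta cell. The labels do not say that the 3 replicates came from separate cultures, and the p-values measure only the spread between these samples, which may be technical.

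The translocon is built around a channel made of Sec61 alpha, beta and gamma subunits, which ribosomes dock on while they thread a growing chain into the ER. Around it sit Serp1 (also called RAMP4), a small tail-anchored protein that binds Sec61 and is known as an ER stress-inducible factor, the Sec62 and Sec63 pair, which helps chains that need assistance to enter, and the translocon-associated protein (TRAP) complex of Ssr1 to Ssr4. Beta cells push large amounts of preproinsulin through this gate, and both Serp1 and TRAP have been linked to insulin production. The members were put together with the results of this contrast known, and Serp1, which heads them, is taken as chosen by its signal here. Differences of the members between the groups are therefore a description, with their errors. Where the text counts members past the threshold of the fit over the whole array, that count describes the values behind the choice and is no test of the members.

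The promoter of Serp1 is shown because Serp1 is the gene that heads the members. It is the 250 bases before the gene's start in RefSeq, build GRCm38.p6, chr3:58525885-58526134, minus strand, read 5′ to 3′ along the gene. The capitals mark CCACG, the letters that end the ER stress element through which ATF6 and XBP1 act. The second sequence is the same window of Hspa5, the ER chaperone BiP, at chr2:34771840-34772089, plus strand, whose capitals mark a whole such element.
Serp1: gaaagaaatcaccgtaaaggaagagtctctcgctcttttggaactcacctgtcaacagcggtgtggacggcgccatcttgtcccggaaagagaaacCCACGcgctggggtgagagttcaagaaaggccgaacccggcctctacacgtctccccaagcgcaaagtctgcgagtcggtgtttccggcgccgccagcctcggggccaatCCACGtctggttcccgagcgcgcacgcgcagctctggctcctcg
Hspa5: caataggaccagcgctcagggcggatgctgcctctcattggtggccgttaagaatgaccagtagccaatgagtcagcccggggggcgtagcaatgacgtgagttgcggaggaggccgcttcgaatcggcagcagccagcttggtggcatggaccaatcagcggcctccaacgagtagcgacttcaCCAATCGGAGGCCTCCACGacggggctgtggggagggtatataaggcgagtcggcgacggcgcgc
Searched on both strands, CCACG started 154 and 44 bases before the Serp1 start. The whole element, searched as CCAAT and CCACG with 9 bases of any kind between them, contains CCACG and started 65 bases before the Hspa5 start. It was in 0.113% of all 32851 windows of this length, and in 0 of the 8 windows of members in the table. CCACG was in 4 of these 8 windows, those of Serp1, Sec63, Ssr1 and Ssr3, and in 28.3% of all windows. These matches are letters in a window and were not measured as binding.

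Array signals were on a common scale, with a trimmed mean of 500.003 on every array, and the arrays correlated between 0.985 and 0.991 across log2 values of genes. The number of arrays limits the precision. Tardbp was lower on all 5 of its probe sets, and on the brightest, 1423723_s_at, controls read 3748, 3940 and 3699 against 2257, 2249 and 1836 after TDP-43 siRNA (log2 difference -0.85, SE 0.08, limma adjusted p = 0.00216 over probe sets). Beta cell markers were strong, with Iapp at 19671 to 23354, Ins2 at 6918 to 8372 and Pdx1 at 5261 to 6645. Slc30a8 read 7224 to 9368, and Nkx6-1 was lower at 1615 to 2013. The alpha cell hormone Gcg was strong too, at 7345 to 10654, but the alpha cell marker Irx1 read only 283 to 370. The delta cell marker Sst read 9.92 to 97.3. The fibroblast markers Col1a1 and Col1a2 read 20.1 to 51.5 and 41.5 to 117.8. The acinar marker Cpa1 (1.65 to 5.49) and the immune marker Ptprc (1 to 16.9) lay near the lowest values of the table, while the acinar markers Cela1 (49.1 to 91.4) and Prss2 (61.2 to 190.6) lay near its middle. In bulk samples such as these, fewer cells of a type and less RNA per cell cannot be told apart.

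Of the 9 members, Serp1 had the lowest log2 difference on its brightest probe set, and it was lower on both of its probe sets. On 1415827_a_at the control arrays read 9156, 9608 and 9040, and the TDP-43 siRNA arrays 7077, 7362 and 7250. All 3 arrays of TDP-43 siRNA lay below all 3 controls, and the highest of them stood at 79.4% of the control mean. On 1415828_a_at the controls read 7629, 7536 and 7370, and the TDP-43 siRNA arrays 5161, 5472 and 5701. The groups were again apart, with a gap wider than the range within either group.

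The log2 difference of Serp1 (TDP-43 siRNA minus control siRNA, on log2(signal + 12)) was -0.36 on 1415827_a_at (SE 0.05, n = 3 per group, 95% confidence interval from -0.47 to -0.25). It was -0.46 on 1415828_a_at (SE 0.06, interval from -0.59 to -0.34). The signal left was 78.0% of the control mean on the first and 72.5% on the second. In size this was less than the fall of Tardbp itself. The 2 probe sets changed in the same direction. Their log2 differences were 0.11 apart, with overlapping intervals.

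**Figure D1:**
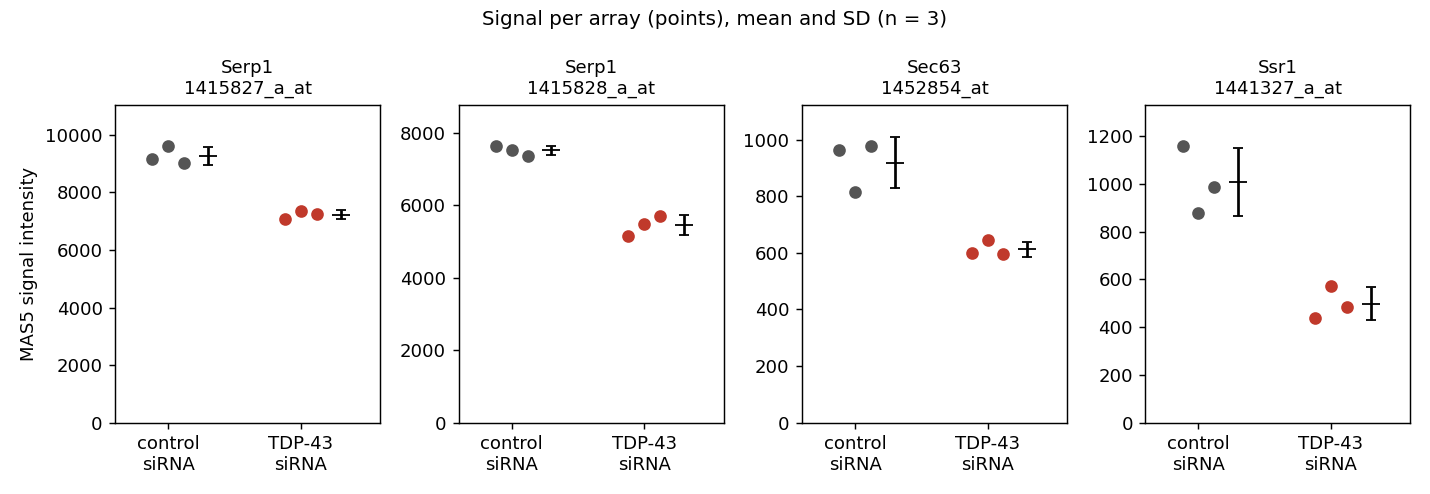
MAS5 signal intensity (linear axis from 0) on each array for both Serp1 probe sets, for Sec63 1452854_at and for Ssr1 1441327_a_at. Grey points are control siRNA, red points TDP-43 siRNA, and black bars the mean with SD of 3 arrays. In each panel the 3 red points lie below the 3 grey ones, at 78.0%, 72.5%, 66.8% and 49.5% of the control mean.

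With each gene represented by its brightest probe set, 1 of the 9 members, Serp1, passed a limma adjusted p of 0.05 in the lower direction, where 0.578% of all 12619 genes tested did so. Since the members were chosen with this contrast known, nothing is read from that share. Members with the groups apart and TDP-43 siRNA lower were 2 of 9, Serp1 and Sec61b, against 8.32% of all genes. The median log2 difference of the 9 members was -0.06, beside 0.02 for all genes tested. All 9 genes and all 29 probe sets passed the filter on low signals.

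Among the members, the channel subunits Sec61a1 and Sec61b differed little between the groups. Sec61a1, the pore-forming alpha subunit, read 9133, 9582 and 8223 in controls and 8750, 8955 and 8827 after TDP-43 siRNA on its brightest probe set, 1416189_a_at. The groups overlapped, with the TDP-43 siRNA arrays inside the range of the controls. The log2 difference was -0.02 (SE 0.06, interval from -0.16 to 0.12). Its other 5 probe sets lay between -0.11 and 0.11, with the groups overlapping on each, so that 6 readings of this gene showed no separation of the groups.

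Sec61b, the small tail-anchored beta subunit of the channel, has 1 probe set of its own. It read 16117, 16790 and 15922 in controls and 14830, 15807 and 15286 after TDP-43 siRNA on 1417083_at. The 3 TDP-43 siRNA arrays were below the controls, but by a narrow margin, since the lowest control stood at 97.8% of the control mean and the highest TDP-43 siRNA array at 97.1%. The log2 difference was -0.09 (SE 0.05, interval from -0.19 to 0.01), smaller than either Serp1 value. The shared Sec61g probe set read 9257, 8394 and 8256 against 7859, 8975 and 8012, with the groups overlapping, but its signal may come from the pseudogenes as well.

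Sec62, a membrane protein that works with Sec63 at the channel, had 5 probe sets that did not move alike. The brightest, 1454697_at, read 4776, 4919 and 4329 in controls and 4849, 4860 and 4302 after TDP-43 siRNA, a log2 difference of -0.00 (SE 0.07, interval from -0.16 to 0.16). On this probe set both groups spanned almost the same range. On the dimmer 1455698_at the controls read 639, 608 and 603 and the TDP-43 siRNA arrays 745, 680 and 733, all above the controls. The log2 difference there was 0.22 (SE 0.08, interval from 0.03 to 0.40). The other 3 probe sets lay between -0.22 and 0.04 with overlapping groups, and the lowest of them, 1444811_at, had signals of only 38.7 to 63.6.

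Sec63, which carries the J domain that recruits the chaperone BiP to the channel, was split between its probe sets. The brightest, 1419819_s_at, read 2363, 2224 and 2153 in controls and 2100, 2209 and 2330 after TDP-43 siRNA (log2 difference -0.02, SE 0.07). On 1452854_at the controls read 964, 814 and 977 and the TDP-43 siRNA arrays 599, 644 and 597. The groups overlapped on the first and were apart on the second, where the highest TDP-43 siRNA array stood at 70.1% of the control mean.

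The log2 difference of Sec63 on 1452854_at was -0.57 (SE 0.09, interval from -0.78 to -0.36). The remaining 3 probe sets of Sec63 lay between -0.06 and 0.06 with overlapping groups. Taken within each array against 1419819_s_at and set to 0 at the control mean, the log2 value of 1452854_at was -0.51, -0.48 and -0.66 on the TDP-43 siRNA arrays, with an SD of 0.15 among controls. Thus 1 of 5 readings of Sec63 was lower and 4 were close to the controls.

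Ssr1, the alpha subunit of TRAP, held the largest difference among all members and the widest disagreement between probe sets. On 1441327_a_at the controls read 1158, 879 and 985 and the TDP-43 siRNA arrays 439, 573 and 484. Every TDP-43 siRNA array lay far below every control, and the mean signal left was 49.5% of the control mean. The log2 difference was -0.996 (SE 0.13, interval from -1.28 to -0.71), rank 35 from the lowest among the 27022 probe sets tested.

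The brightest Ssr1 probe set, 1417763_at, did not share that drop. It read 9844, 10042 and 9460 in controls and 9709, 10125 and 9792 after TDP-43 siRNA, a log2 difference of 0.01 (SE 0.05, interval from -0.09 to 0.12). On 1448843_at the order was the opposite of that on 1441327_a_at: controls read 902, 807 and 761 and the TDP-43 siRNA arrays 968, 1071 and 953, all above the controls. The log2 difference there was 0.28 (SE 0.09, interval from 0.07 to 0.48), while 1417764_at was at -0.08 (SE 0.09) with overlapping groups.

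Within each array and set to 0 at the control mean, the log2 value of 1441327_a_at against 1417763_at was -1.16, -0.84 and -1.03 on the TDP-43 siRNA arrays and 0.20, -0.22 and 0.03 on the controls. The part of the Ssr1 and Sec63 transcripts that each probe set reads was not known here. A level for the whole gene therefore rests on which probe set is used.

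**Figure D2:**
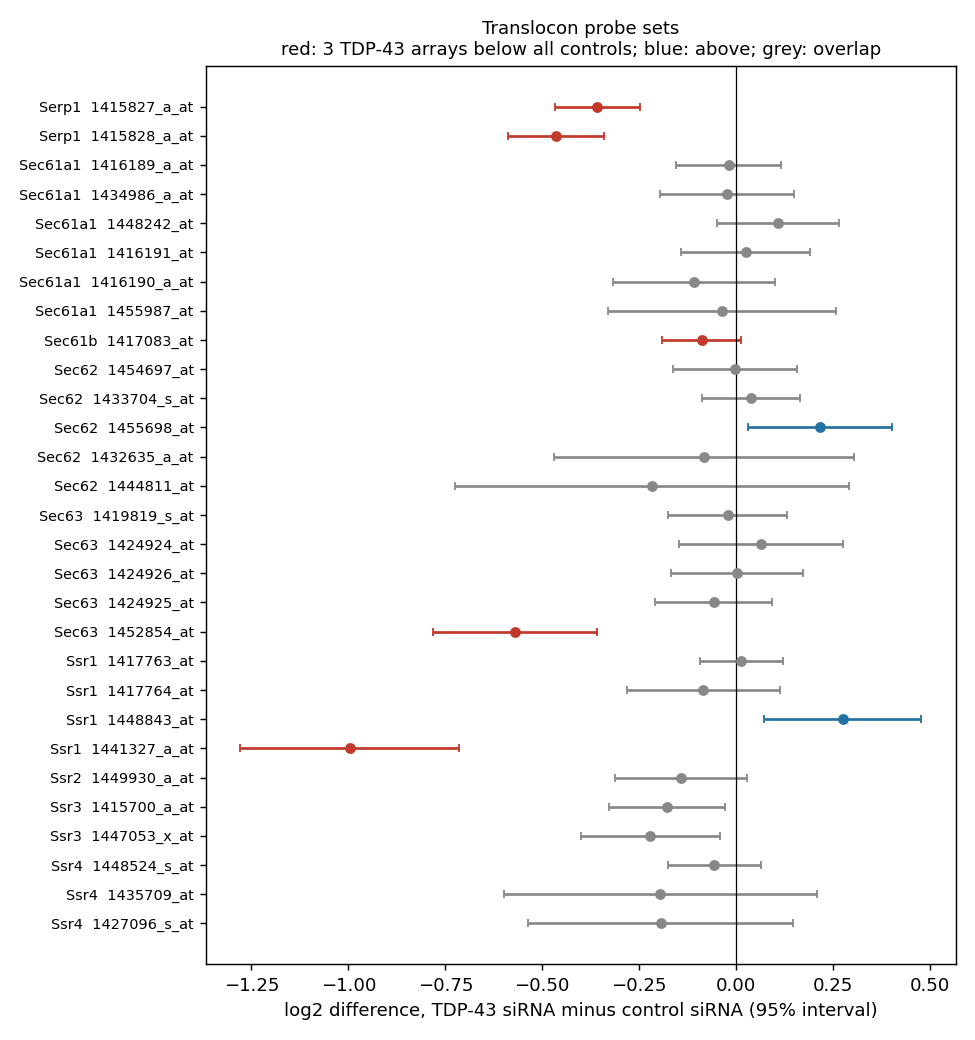
Log2 difference (TDP-43 siRNA minus control siRNA) of each of the 29 member probe sets, grouped by gene from the brightest to the dimmest, with its 95% confidence interval from limma. Red marks the 5 probe sets whose 3 TDP-43 siRNA arrays lie below all controls, blue the 2 that lie above them, and grey those whose groups overlap; only Serp1 has more than 1 red probe set.

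The other TRAP subunits were slightly lower with overlapping groups. Ssr2, the beta subunit, read 7097, 6694 and 5773 in controls and 5695, 6115 and 5870 after TDP-43 siRNA on its single probe set (log2 difference -0.14, SE 0.08). Control replicate 3 lay among the TDP-43 siRNA arrays, below 2 of them. Ssr3, the gamma subunit, read 8980, 9321 and 7989 in controls and 7660, 8146 and 7390 after TDP-43 siRNA on 1415700_a_at. Here too control replicate 3 was the array that overlapped.

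The log2 difference of Ssr3 was -0.18 (SE 0.07, interval from -0.33 to -0.03), and its second probe set, 1447053_x_at, gave -0.22 (SE 0.08). Ssr4, the delta subunit, read 14259, 15146 and 13547 in controls and 13235, 13866 and 14190 after TDP-43 siRNA on its brightest probe set, a log2 difference of -0.06 (SE 0.05). Its 2 dim probe sets gave -0.20 (SE 0.18) and -0.19 (SE 0.15), with intervals on both sides of 0. On these the lowest array was TDP-43 siRNA replicate 1.

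**Figure D3:**
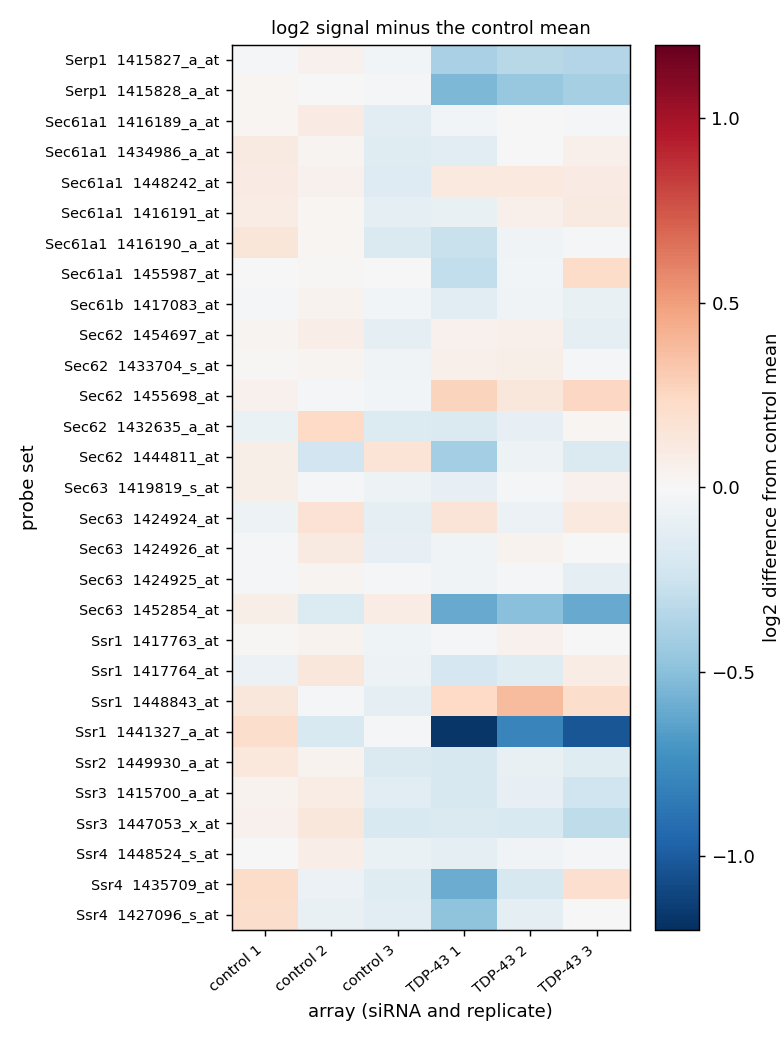
Log2(signal + 12) of each member probe set (vertical axis) on each of the 6 arrays (horizontal axis), minus the mean of the 3 control arrays for that probe set; the colour scale is in log2 units, blue for lower and red for higher. The 4 rows that lie at -0.33 or lower on all 3 TDP-43 siRNA arrays are both Serp1 probe sets, Sec63 1452854_at and Ssr1 1441327_a_at.

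Among the 29 probe sets, 21 lay below 0 and 8 above. Those past a limma adjusted p of 0.05 were 4, all lower (both of Serp1, 1 of Sec63 and 1 of Ssr1), against 0.455% of all probe sets in that direction. The groups were apart with TDP-43 siRNA lower on 5, against 8.45% of all probe sets, and higher on 2, against 8.74%. As at the gene level, the choice was made with these values known, so nothing is read from these shares. The 29 are not independent, since probe sets of 1 gene share its transcripts.

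These counts depended on single arrays. The 4 became 2 without control replicate 1 or without any 1 of TDP-43 siRNA replicates 1, 2 and 3, and 3 without control replicate 2 or 3. Counts over the whole array moved too. There 56, 63 and 325 probe sets passed without control replicate 1, 2 or 3. Without TDP-43 siRNA replicate 1, 2 or 3 they were 63, 77 and 62. With all 6 arrays 123 passed in the lower direction alone. The brightest Serp1 probe set, 1415827_a_at, passed in 1 of 6 refits with a single array dropped (control replicate 3), and did not pass with no filter on low signals. As the value of the gene, fitted over genes, it was lost without control replicate 1 (log2 difference -0.37) or control replicate 2 (-0.33). Ssr1 1441327_a_at and Serp1 1415828_a_at passed in all 6. Sec63 1452854_at passed in 1, with control replicate 2 dropped. Without the intensity trend in limma's variance model 0 of the 29 passed, but 0 probe sets of the whole array passed there either. That 0 therefore says nothing particular about the members.

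The genes whose log2 signal followed Serp1 most closely over the 6 arrays were Pex5 (Pearson r = 0.994), the receptor that carries proteins to peroxisomes, Mcph1 (0.989), the microcephaly protein microcephalin, Ang (0.988), the ribonuclease angiogenin, Socs6 (0.987), a suppressor of cytokine signalling, and Mcc (0.986). All 5 were lower after TDP-43 siRNA, with log2 differences from -0.68 for Mcc to -0.14 for Ang. With 6 arrays in 2 groups such an r mostly ranks how cleanly a gene splits the groups, over 12618 genes on shared arrays. Of the members, Sec61b (0.873) and Ssr3 (0.824) came nearest to Serp1, at ranks 387 and 610. Sec62 (0.0845) and Ssr1 (-0.0657) on their brightest probe sets did not follow it.

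The rest of the route into the ER was described through lists chosen by function. A list of 15 genes that ATF6 and XBP1 raise under ER stress was pooled with them. Together these lists held 76 genes, of which 72 were tested, so the counts that follow are not of import genes alone. Of these 72, 0 passed a limma adjusted p of 0.05, against 0.745% of all genes (94 of 12619). At an unadjusted limma p of 0.05 there were 10 of 72, beside 12.6% of all genes. Below 0 lay 51 of the 72, beside 45.0% of all genes, and this count fell to 42 without control replicate 2 or without TDP-43 siRNA replicate 1. The groups were apart with TDP-43 siRNA lower for 8 (8.32% of all genes) and higher for 3 (9.98%). The median was -0.03, beside 0.02 for all genes.

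Closest to the threshold stood Sec61a2, the second alpha subunit and paralog of Sec61a1. It read 1179, 1336 and 1181 in controls and 892, 968 and 830 after TDP-43 siRNA, so that the groups did not overlap. The log2 difference was -0.45 (SE 0.09, limma adjusted p = 0.0522). It passed without control replicate 3 (limma adjusted p = 0.0419), after median centring of the arrays (0.0452), with the stricter filter on low signals (0.0415) and with the replicate number as a block (0.0350), and over all alternatives its adjusted p ran from 0.0350 to 0.245. Its second probe set, 1420644_a_at, was at -0.07 (SE 0.11) with overlapping groups.

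Serp2, the paralog of Serp1, read 395, 390 and 357 in controls and 224, 251 and 336 after TDP-43 siRNA. These values did not overlap either, but the TDP-43 siRNA arrays were spread widely, and the log2 difference of -0.50 (SE 0.14) did not pass (limma adjusted p = 0.177). It has 1 probe set. Among the other 16 partners at the channel, Dnajc10, a disulfide reductase of the ER, was at -0.15 and Tram1, which helps chains into the membrane, at -0.09. The chaperone Hspa5 was at -0.04 (SE 0.05).

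The signal recognition particle (SRP) brings ribosomes to the channel, and 0 of 10 tested genes of the particle, its receptor and the nascent chain complex passed. Of all genes 0.745% did, so 0 in a list of this size is near that share. Srpr, the alpha subunit of the receptor, read 6237, 6140 and 5711 in controls and 5370, 5692 and 5158 after TDP-43 siRNA, apart from the controls by a narrow margin (log2 difference -0.16, SE 0.06, limma adjusted p = 0.309). Srp9 was at -0.14, Srp19 at -0.11 and Srp54b, a dim gene with near-identical copies, at -0.45 (SE 0.20). The list's median was -0.06.

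Of 5 signal peptidase genes, which cut off the signal sequence, 0 passed, near the share of 0.745% of all genes. Sec11a, a catalytic subunit, was at -0.15 (SE 0.06), Spcs2 at -0.04, Spcs3 at -0.03 and Spcs1 at -0.02. Of 12 genes of the oligosaccharyltransferase, which adds sugars to chains at the translocon, 0 passed, also near that share. The median was -0.02. Tusc3 was at 0.11, Stt3a at -0.10, Magt1 at -0.08 and Ostc at -0.05. Rpn1 was at 0.02 on its brightest probe set, but its dimmest, 1459778_at, differed. It read 32.6, 34.6 and 24.0 in controls and 73.8, 75.5 and 71.4 after TDP-43 siRNA, all above the controls. Such a gap was seen on 8.74% of all probe sets. The log2 difference there was 1.02 (SE 0.22) and did not pass (limma adjusted p = 0.0953 over probe sets). The groups overlapped on every other Rpn1 probe set.

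Other insertion routes showed no called gene either, which in lists of this size is near the share of 0.745% of all genes. Of 7 tail-anchor and SND insertion genes 0 passed, with Get1 at -0.17, Sgta at -0.08, Get4 at 0.06 and Bag6 at 0.04. Of 10 genes of the ER membrane protein complex (EMC), an insertase for membrane proteins, 0 passed and the median was 0.06. Emc6 was at 0.26 (SE 0.09) and Emc1 at 0.19 (SE 0.08), while Emc3 was at -0.15 and Mmgt1 at -0.11. The second Emc6 probe set, 1448882_at, was at 0.35 (SE 0.09). On both Emc6 probe sets the groups were apart with TDP-43 siRNA higher, as on 8.74% of all probe sets, and neither passed. The probe sets of Emc1 disagreed: on 1436709_at the controls read 1205, 983 and 1002 and the TDP-43 siRNA arrays 772, 907 and 898, all below the controls (log2 difference -0.30, SE 0.10). With its probe sets averaged Emc1 was at 0.0097.

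Serp1 belongs to the genes that ATF6 and XBP1 raise under ER stress, so other such genes were read on the same arrays. Of 15 tested, 0 passed, the groups overlapped on the brightest probe set of each and the median was -0.04. Of all genes 0.745% passed, so 0 of 15 is near that share. Groups were apart with TDP-43 siRNA lower for 8.32% of all genes and higher for 9.98%. On dimmer probe sets the groups were apart and TDP-43 siRNA lower for Edem1 (1451218_at, log2 difference -0.30, SE 0.11) and Hsp90b1 (1438040_a_at, -0.08). Creld2 was at -0.22 (SE 0.09), and without control replicate 3 it was at -0.33 and passed (limma adjusted p = 0.0245; the highest among its alternatives was 0.736). Of these 15, 5 also stand in the list of channel partners. Dnajb9 was at 0.09, Hsp90b1 at -0.08 and Hyou1 at -0.07. A difference between Serp1 and these genes was not tested.

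**Figure D4:**
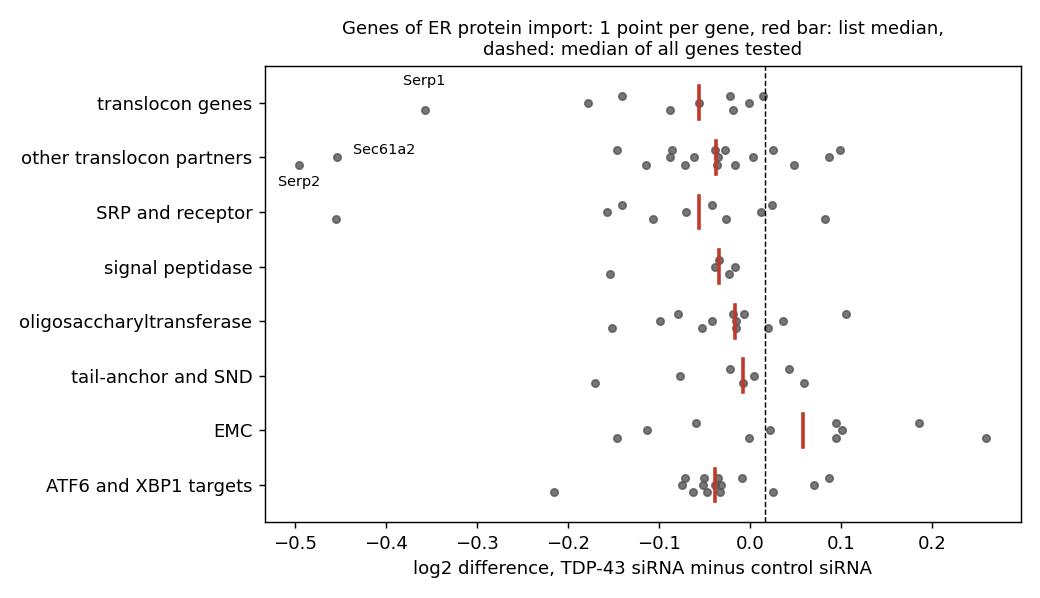
Log2 difference (TDP-43 siRNA minus control siRNA, horizontal axis) of each tested gene on its brightest probe set, by list (vertical axis); red bars are list medians and the dashed line the median of all genes tested (0.02). Most genes lie within 0.2 of 0, and Serp1, Serp2, Sec61a2 and Srp54b lie at or below -0.36.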

How the data were processed

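MIN6 RNA was measured on 6 arrays. The authors obtained the deposited signal intensity of each probe set with MAS5, as the submitters' processing notes record (the version is not given there); the values are linear and, as checked, share one trimmed mean (highest and lowest 2% left out). No detection call entered. Gene names came from the platform annotation, with symbols updated by Entrez number (34741 of 34945 single-gene probe sets matched). The value 12 was added before log2. Control probe sets, and the dimmest 40% of the others by mean signal, were left out, which kept 27022. A gene's brightest probe set stood for it. The contrast was fitted in R 4.3.3 by limma 3.58.1, with lmFit and then eBayes allowing the variance to follow intensity (two-sided, Benjamini-Hochberg over all genes or all probe sets, threshold 0.05). The members, lists and alternatives were chosen with earlier results of these data known. Named genes were Tardbp, the members, up to 4 genes with the smallest p of each other list, and the 5 genes most like Serp1 (predicted genes skipped); others named beside these were chosen after their values were seen. Tested on simulated data for this contrast over 12619 genes, limma recovered 54% of 100 genes changed by 0.5 and 98% of 100 changed by 1, with 5 unchanged genes called. The simulated spread did not follow intensity, and both sizes are larger than the differences of Serp1. These rates therefore do not give the recovery in the real data. Promoters came from RefSeq (GRCm38.p6), whose table held 8 of the 10 members. Figures used matplotlib 3.10.9.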

Additional observations from a re-analysis of the deposited data

How the results depend on the processing

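The 4 probe sets of the members that passed became 2 with no filter on low signals and 0 without the intensity trend, and 2 to 3 when 1 array was left out. Over the whole array 69 probe sets passed with no filter, 0 without the intensity trend, and 56 to 325 with 1 array left out. The member genes that passed (1) became 0 without the intensity trend and 0 to 1 with 1 array left out. The 0 of the other listed genes, ATF6 and XBP1 targets included, became 1 (Sec61a2) with the 60% filter, with median centring or with the replicate block. With 1 array left out it became 0 to 2. The 94 genes called in all became 51 with no filter, 12 without the intensity trend and 61 when the probe sets of each gene were averaged, and 31 to 253 with 1 array left out. The cause of these changes was not tested. Both Serp1 probe sets stayed below 0 in all 14 alternatives run, from -0.38 to -0.33 and from -0.50 to -0.43, as did Ssr1 1441327_a_at (-1.10 to -0.89) and Sec63 1452854_at (-0.65 to -0.52); for groups that do not overlap, leaving out an array cannot turn the direction. With probe sets averaged Ssr1 was at -0.20 and Sec63 at -0.12, and neither passed. Same-numbered arrays deviated together only for replicate 3 (correlations of -0.123, -0.138 and 0.239), so the replicate numbers were not taken as pairs. Control replicate 2 gave 0.296 with TDP-43 siRNA replicate 1, and control replicate 1 gave 0.226 with TDP-43 siRNA replicate 2. All other combinations were negative, and a pairing in another order was not tested. With the replicate block 3 of the members' probe sets passed, 1 member gene, and 123 genes in all. Members at or above 0 numbered 2 after quantile normalization and 1 after median centring. Signals of the dimmest probe sets are close to the lower part of the table and limit what their differences show.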
